A study of Mus musculus with 8 samples.

Results

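The genes described here encode the nuclear-encoded parts of respiratory chain complexes I to V of the mitochondrion. They were chosen by name: every gene in the deposited table whose mouse symbol starts with Nduf, with Sdh followed by a to d, with Uqcr, with Cox followed by 4 to 8, or with Atp5, plus Cyc1 and Cycs. This gave 95 symbols, of which 2 pseudogenes (Uqcrh-ps1 and Ndufa11b) were left out. The remaining 93 of 11723 listed genes were 81 subunits and 12 assembly factors. The rule uses names alone, but it was set with earlier results of these data known. Another 9 protein-coding genes with such names (Cox4i2, Cox6a2, Cox7b2, Cox8b, Cox8c, Ndufa4l2, Ndufb1, Ndufb4b and Ndufb4c) and the 13 subunits encoded by mitochondrial DNA were not analysed here.

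RNA was sequenced from CD8 T cells, the cytotoxic lymphocytes of the immune system, which a cell sorter had isolated from the peripheral lymph nodes of BALB/c mice aged 12 days. There were 4 libraries from wild-type (WT) mice and 4 from mice lacking interleukin-2, a growth factor that T cells make (IL-2-KO). The labels describe no treatment, and neither the knockout allele nor whether it is confined to a cell type. In WT replicates 1 to 4 the sorter yielded 115, 28.7, 1.3 and 1.3 M cells (M = 1e6), from 5, 5, 3 and 2 pooled mice. In the IL-2-KO replicates the yield was 26.7, 42.6, 1.1 and 0.4 M cells, from a number of mice that is not stated. The text on the whole series also names spleen and heterozygous controls, which no sample label does, so WT libraries may include heterozygous mice.

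Complexes I and II pass electrons from NADH and succinate to ubiquinone, complex III passes them on to cytochrome c, and complex IV hands them to oxygen. Complexes I, III and IV pump protons across the inner membrane, and complex V, the ATP synthase, uses the return flow to make ATP. Complex II is also an enzyme of the tricarboxylic acid cycle. T cells that leave rest and divide are known to enlarge their mitochondria and their oxidative capacity.

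Every value given for a library is a TMM-scaled CPM, the authors' count per 1e6 of a library size adjusted by the trimmed mean of M-values. Counts over the listed genes came to between 11.9 M (WT 2) and 18.4 M (IL-2-KO 3), so that a value of 1 rests on 11.87 to 18.60 counts. Markers of CD8 T cells were high in every library, with 9 of 10 listed and summed values of 6600 to 7340 in WT and 5850 to 6910 in IL-2-KO. Il2 itself read 5.72, 5.65, 6.25 and 5.91 in WT and 5.13, 7.32, 8.42 and 4.25 in IL-2-KO. The table does not resolve exons, so Il2 checks no genotype label. WT 2 and IL-2-KO 3 stood apart in the markers of other cells: 3 of 7 myeloid markers were listed and summed to 76.0 and 377 there, against 2.88 to 10.7 in the other 6 libraries. In dendritic cell markers (4 of 6 listed) the sums were 275 and 658, against 5.73 to 40.3. The markers of CD4 T cells (3 of 3 listed, sums of 6.05 to 58.6), B cells (3 of 7, 20.9 to 57.7) and natural killer cells (3 of 4, 3.17 to 43.3) were also highest in IL-2-KO 3, and those of erythroid cells (4 of 6, 9.76 to 94.9) in WT 4.

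Most respiratory chain genes lay slightly higher in IL-2-KO cells, and few passed the test. Of the 92 genes tested (all but Cox7a1, whose values were under the filter), 78 had a log2 difference above 0, where 48.5% of all tested genes did. The median difference, IL-2-KO minus WT, was 0.17 on the log2(value + 0.5) scale, a 1.12-fold level, against -0.01 for the 11530 genes tested. By limma with Benjamini-Hochberg adjustment over all of them, 4 members were higher at an adjusted p under 0.05 (Cox4i1, Sdhd, Atp5b and Atp5pb) and 0 were lower. That is 4.35% of the members, below the 11.1% of all tested genes that were called higher; 8.03% were called lower. At an unadjusted p under 0.05, 21 members were higher and 3 lower, while 17.0% and 16.3% of all tested genes were. In bulk RNA, a larger share of cells with a high level and more RNA per cell cannot be told apart.

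**Figure D1:**
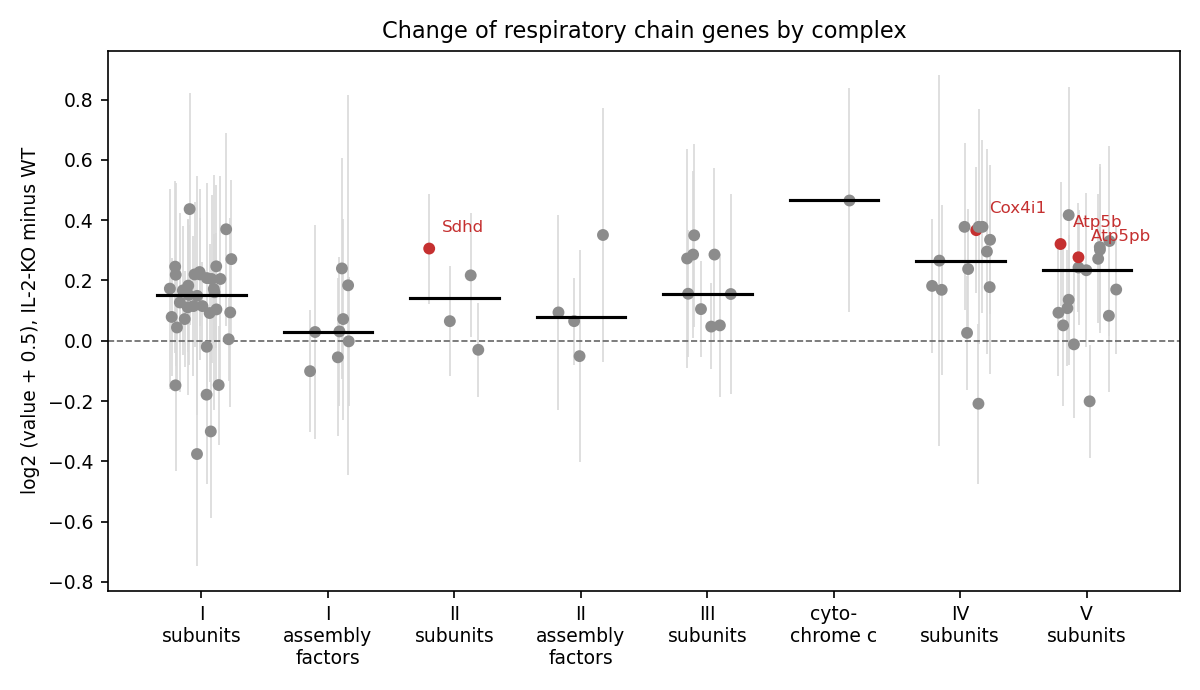
Each point is the log2 difference of 1 of the 92 tested genes between 4 IL-2-KO and 4 WT libraries, on the log2(value + 0.5) scale, with its 95% confidence interval in grey. Black bars mark the median of each group, red points the 4 genes that passed the adjusted test. The medians run from 0.03 for complex I assembly factors to 0.27 for complex IV subunits, and the single point of cytochrome c (Cycs) lies at 0.47.

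The summed level of all 93 genes was 8465, 8753, 7805 and 7942 in WT and 10020, 9015, 9773 and 8790 in IL-2-KO. The groups did not overlap, but the highest WT sum and the lowest IL-2-KO sum lay close together. Split by transcript length, the sums were without overlap only for members of 1500 bases or more. That class holds Atp5a1 and Atp5b, the members with the highest values. Over all 93 genes, mean sums were 8241 ± 444 and 9399 ± 589 (SD, n = 4 each), a ratio of 1.14. Subunits made up most of these sums (7951 ± 435 in WT and 9100 ± 567 in IL-2-KO) and had a ratio of 1.14. The 12 assembly factors summed to 289.9 ± 10.9 in WT and 298.5 ± 23.1 in IL-2-KO, a ratio of 1.03. None of the 12 assembly factors passed the test, and their median log2 difference was 0.05, against 0.17 for the 80 subunits tested. The difference between subunits and assembly factors was not tested, and their transcript lengths were not matched.

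Promoters were read to see what the genes share in sequence. For 79 of the members RefSeq (GRCm38.p6) gave 84 promoters, and the 250 bases before each start were searched on both strands for exact motifs of regulators known for this pathway. The NRF1 core GCATGCGC lay in 10 of the 84 (11.9%), against 4.52% of 11694 promoters of tested genes and 2.26% of all 32851 promoters. The core preceded by GC, its palindromic form, was in 5.95%, 1.74% and 0.782%. The ETS motif CCGGAAG, bound by GABP among others, was in 19.0%, 14.2% and 6.91%. YY1's AAGATGGCG was in 1.19% of member promoters and 1.21% of those of tested genes, and the estrogen-related receptor motif TCAAGGTCA in 1.19% and 0.248%. The 30 bases around the motif (capitals) are shown for the electron carrier Cycs, for members of complexes I, II and V on both sides of 0, and for Sdhd, which passed the test and holds the ETS motif on the opposite strand. Each is written 5′ to 3′ on the strand of its gene.
Cycs, chr6:50566611-50566640, minus strand: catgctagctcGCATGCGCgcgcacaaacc
Ndufa6, chr15:82354356-82354385, minus strand: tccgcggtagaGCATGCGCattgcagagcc
Sdhb, chr4:140961206-140961235, plus strand: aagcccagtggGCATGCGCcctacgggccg
Atp5k, chr5:108434429-108434458, minus strand: ttcactgcggcGCATGCGCctttctggctt
Atp5g2, chr15:102671069-102671098, minus strand: gctccggccgcGCATGCGCagagccttccc
Atp5l, chr9:44920963-44920992, minus strand: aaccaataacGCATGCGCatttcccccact
Sdhd, chr9:50603877-50603906, minus strand: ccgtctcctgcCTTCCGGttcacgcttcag

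In Cycs the first base of the match lay 60 bases before the annotated start, in Atp5g2 40 bases and in Atp5l 240 bases. The 10 genes with the NRF1 core had log2 differences from -0.20 (Atp5l) to 0.47 (Cycs), 7 above 0 and 3 below, and 0 of them passed the test. Of the 4 genes that passed, Atp5b and Atp5pb held none of these motifs in the window, and Cox4i1 was not in the promoter table. A match of letters is a description of the sequence and shows no binding.

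Complex I, the NADH dehydrogenase, was represented by 36 subunits, of which 0 passed the test. Their median log2 difference was 0.15, with 30 of 36 above 0. The 7 core subunits, which hold the flavin and the iron-sulfur clusters, had a median of 0.01, and the 29 accessory subunits one of 0.15. Ndufc2, an accessory membrane subunit, read 42.2, 50.7, 40.2 and 41.3 in WT and 63.9, 50.9, 69.9 and 44.1 in IL-2-KO (0.37, adjusted p = 0.101 by limma). Its IL-2-KO values fell into a high pair, replicates 1 and 3, and a pair inside or at the edge of the WT range. Among the core subunits, Ndufv1, which binds NADH, had a mean of 87.6 ± 3.49 in WT and 87.8 ± 1.98 in IL-2-KO, and Ndufs1 141 ± 5.21 and 139 ± 3.89 (SD, n = 4 each).

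The members with the lowest log2 differences were accessory subunits of complex I. Ndufab1, the mitochondrial acyl carrier protein, which also serves fatty acid synthesis, read 32.7, 20.5, 33.1 and 32.7 in WT and 24.8, 25.5, 18.9 and 21.0 in IL-2-KO (-0.38, adjusted p = 0.146 by limma). A single WT library, replicate 2, lay within the IL-2-KO range. Ndufb4 had means of 16.7 ± 2.23 and 13.4 ± 1.46 (-0.30, adjusted p = 0.135). The 8 complex I assembly factors, helpers that are not part of the finished enzyme, had a median of 0.03, from -0.10 for Ndufaf4 to 0.24 for Ndufaf3. Their summed level was 181.0 ± 10 in WT and 180.4 ± 14.4 in IL-2-KO.

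In complex II, Sdhd rose and its partner in the membrane did not pass the test. Sdhd (chromosome 9, 50596340 to 50603849, GRCm38.p6) encodes 1 of the 2 membrane anchors of succinate dehydrogenase. It read 98.3, 96.1, 85.5 and 86.9 in WT and 123, 115, 116 and 101 in IL-2-KO. Every IL-2-KO value lay above every WT value (1.24-fold, log2 difference 0.31, SE 0.08, adjusted p = 0.0274 by limma). Sdhc, the other anchor, had means of 83.7 ± 5.64 and 81.8 ± 2.39 (adjusted p = 0.806). Of the catalytic subunits, the iron-sulfur protein Sdhb was at 105 ± 6.66 and 123 ± 14.3 (adjusted p = 0.131), and the flavoprotein Sdha at 228 ± 5.18 and 239 ± 25.5 (adjusted p = 0.618). The sum of the 4 subunits was 508.0 ± 13 in WT and 557.1 ± 17.1 in IL-2-KO, without overlap. Among the 4 assembly factors, of which 0 passed, the largest log2 difference was that of Sdhaf1, 0.35 (95% interval -0.07 to 0.77), and the lowest was that of Sdhaf3, -0.05.

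Complex III, the cytochrome bc1 complex, had 9 subunits, all with a log2 difference above 0 and 0 past the test. The median was 0.16. Uqcr10, a small accessory subunit, read 63.7, 71.2, 52.0 and 58.3 in WT and 93.3, 70.0, 87.4 and 64.0 in IL-2-KO (log2 difference 0.35, adjusted p = 0.102 by limma). Replicates 1 and 3 were again the high pair. Uqcrb, another accessory subunit, had means of 19.7 ± 0.632 and 24.4 ± 4.16 (0.29, adjusted p = 0.138), and the 5 accessory subunits together a median of 0.27. The core proteins Uqcrc1 (0.05) and Uqcrc2 (0.11), whose transcripts are longer, and the heme subunit Cyc1 (0.05) lay nearer 0. Cycs, the soluble carrier between complexes III and IV, which also triggers apoptosis when released, had the largest log2 difference of the members, 0.47 (95% interval 0.10 to 0.84, adjusted p = 0.0774 by limma). It read 30.1, 34.1, 27.2 and 29.0 in WT and 51.7, 35.4, 52.4 and 31.5 in IL-2-KO, so that 2 IL-2-KO libraries stood well above WT, and replicate 4 lay within the WT range.

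Complex IV, cytochrome c oxidase, had the highest median of the 5 complexes, 0.27 over 13 subunits tested. In it 1 subunit rose, 7.69% of those tested, below the 11.1% of all tested genes called higher. In 12 of the 13 (92.3%, against 32.7% of all tested genes) IL-2-KO replicates 1 and 3 both exceeded replicates 2 and 4. Cox4i1 (chromosome 8, 120668225 to 120674209), the common form of a subunit that regulates the enzyme by binding ATP, read 232, 271, 212 and 210 in WT and 305, 275, 322 and 289 in IL-2-KO. The groups did not overlap, although WT 2 and IL-2-KO 2 nearly met (1.29-fold, log2 difference 0.37, SE 0.09, adjusted p = 0.0214 by limma). Cox5a had means of 72.7 ± 11.3 and 94.6 ± 13.6 (0.38, adjusted p = 0.0595), and Cox5b, a zinc-binding subunit, 36.8 ± 2.89 and 46.2 ± 10.8 (0.30, adjusted p = 0.207). Cox6b1, which faces the intermembrane space, was at 96.8 ± 17.8 and 125 ± 14.4 (0.38, adjusted p = 0.0672), and Cox8a at 104 ± 20.1 and 137 ± 33.4 (0.38, adjusted p = 0.162). Cox7c was the single subunit of complex IV below 0, at -0.21. Cox7a2l, which joins complexes III and IV into supercomplexes, had means of 252 ± 29.5 and 255 ± 8.46.

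In the ATP synthase 2 of 17 subunits rose, which is 11.8% and close to the 11.1% of all tested genes. Atp5b (chromosome 10, 128083307 to 128090388), the catalytic beta subunit of the F1 head, read 740, 636, 656 and 664 in WT and 816, 896, 738 and 923 in IL-2-KO. The groups met at their edges, since IL-2-KO 3 lay just under WT 1 (1.25-fold, log2 difference 0.32, SE 0.09, adjusted p = 0.0368 by limma). The small RNA genes Snord59a and Mir677 lie within Atp5b. Atp5pb (chromosome 3, 105942698 to 105959263), subunit b of the stalk that holds the head still, read 143, 151, 135 and 135 in WT and 195, 160, 173 and 159 in IL-2-KO, without overlap (1.21-fold, log2 difference 0.28, SE 0.08, adjusted p = 0.0384 by limma). Atp5a1, the alpha subunit that alternates with beta, read 708, 701, 631 and 643 in WT and 729, 856, 742 and 854 in IL-2-KO. Its groups did not overlap, and it did not pass the adjusted test (0.24, adjusted p = 0.077).

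**Figure D2:**
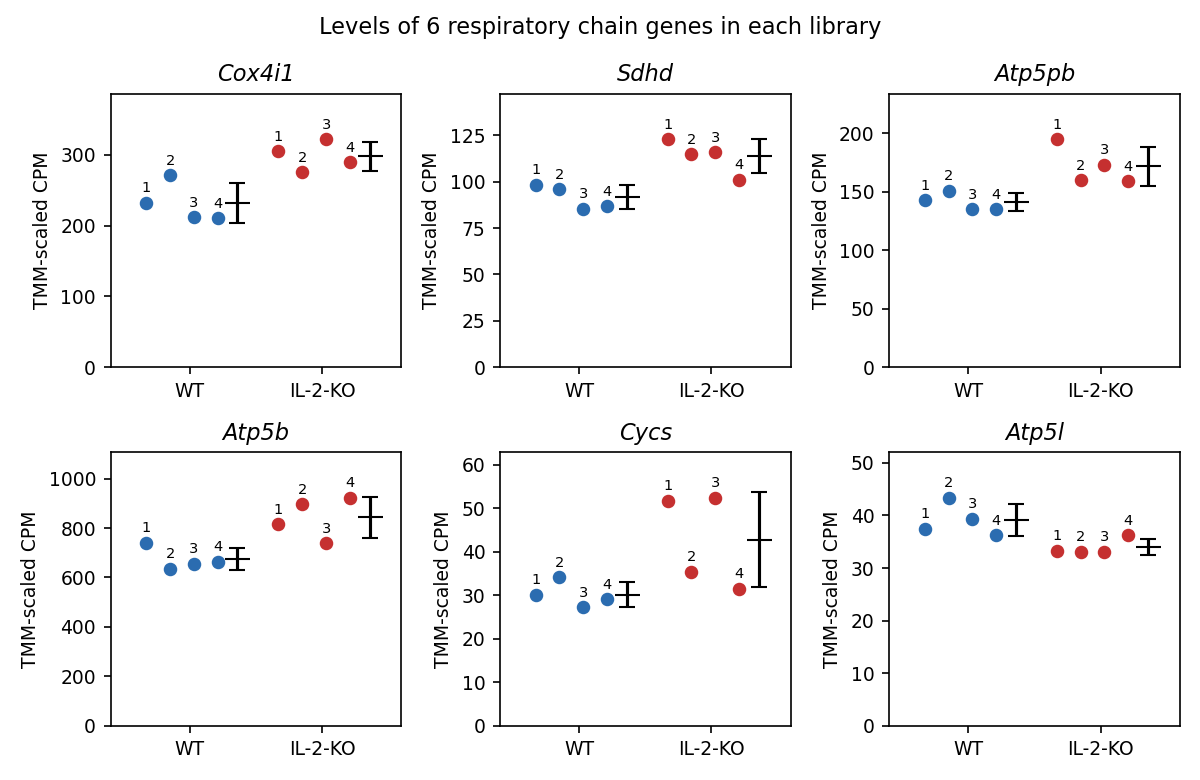
TMM-scaled CPM of 6 genes in each library, numbered by replicate, with the mean ± SD of each group (n = 4) beside the points; axes start at 0. In Cycs, IL-2-KO replicates 1 and 3 stand above the rest at 51.7 and 52.4, in Atp5b replicate 3 is the lowest of its group at 738, and in Atp5l all 4 IL-2-KO values lie under the WT values.

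By position in the ATP synthase, the 5 F1 subunits had a median log2 difference of 0.24, the 4 stalk subunits 0.22, the 5 other membrane subunits 0.30 and the 3 genes of the c ring 0.05. The summed F1 level was 1884 ± 90.2 in WT and 2252 ± 84.1 in IL-2-KO (SD, n = 4 each), a ratio of 1.2 without overlap. For all 17 subunits the sums were 3047, 2985, 2763 and 2817 in WT and 3543, 3407, 3386 and 3362 in IL-2-KO. Here, unlike in complexes I, III and IV, the sums did not overlap and IL-2-KO replicates lay close together. Atp5a1 and Atp5b, the largest terms of these sums, were highest in IL-2-KO replicates 2 and 4 (856 and 854, 896 and 923). In 13 of the 17 subunits (76.5%) replicates 1 and 3 both exceeded replicates 2 and 4. Atp5l, subunit g, was the member with every IL-2-KO value below every WT value: 37.5, 43.4, 39.4 and 36.3 in WT, 33.3, 33.1, 33.1 and 36.2 in IL-2-KO (-0.20, adjusted p = 0.128 by limma). The gap was small, and an annotated gene, Gm30934, overlaps Atp5l. Annotated genes also overlap Atp5a1 (Haus1) and Atp5md (Taf5). Over all members, 5 had groups without overlap and higher in IL-2-KO (5.43%; Sdhd, Cox4i1, Atp5a1, Atp5pb and Atp5md), and 1 lower, while 12.9% and 11.2% of all tested genes did.

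Levels per kilobase of transcript (the mean TMM-scaled CPM over 8 libraries divided by the median coding transcript length in kb) differed between members by a wide range. Subunit medians were 168 for complex V, 152.5 for IV, 87.7 for III, 81.9 for II and 71.95 for I. The highest members were Atp5e (397), Atp5b (396) and Atp5g3 (390) of the ATP synthase, Cox4i1 (350) and Uqcrh (326). Assembly factors were at medians of 15.05 (complex I) and 11.76 (complex II), and Cycs, whose annotated transcript is long, at 11.7. In the c ring and in subunits 6b and 7a, 1 form led. Of the 3 genes for the c ring protein, Atp5g3 had the highest RNA level per kb, with Atp5g2 at 72.4 and Atp5g1 at 7.41. The lengths used were 586 bases for Atp5g2 and 2675.5 for Atp5g1. Undivided by length, Atp5g2 had means of 42.6 in WT and 42.3 in IL-2-KO, and Atp5g1 19.4 and 20.3. Per kb, Cox6b1 was at 228 and its testis form Cox6b2 at 2.63, and Cox7a2 was at 138 while the muscle form Cox7a1 was at 1.80. The 3 genes of the c ring had log2 differences of 0.23 (Atp5g3), 0.05 (Atp5g1) and -0.01 (Atp5g2), and 0 of them passed the test; the signs of the last 2 changed under other settings.

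**Figure D3:**
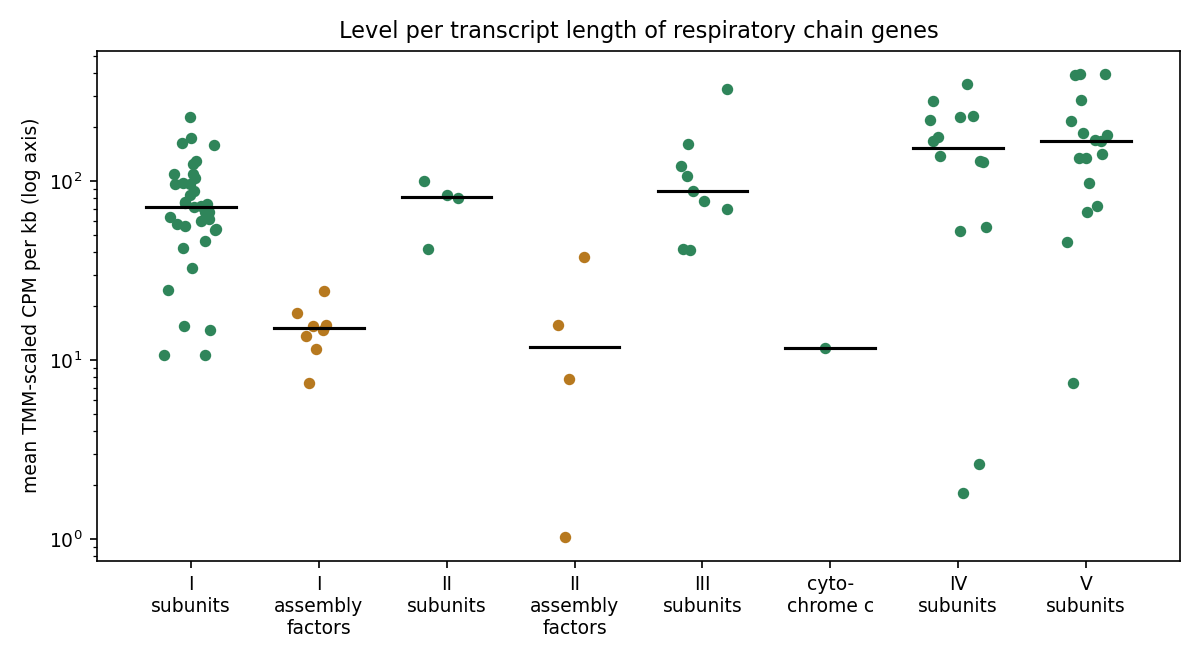
Mean TMM-scaled CPM per kb of coding transcript over 8 libraries for each of the 93 genes, on a log axis; green points are subunits, orange points assembly factors, and bars the group medians. Subunit medians lie between 71.95 and 168, and assembly factor medians at 15.05 and 11.76. The lowest subunits are Cox7a1 (1.80), Cox6b2 (2.63) and Atp5g1 (7.41), whose annotated transcript is long.

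The spread within groups followed the libraries in the same order for most members. IL-2-KO replicates 1 and 3 both exceeded replicates 2 and 4 in 72 of 92 members (78.3%), against 32.7% of all tested genes, and both lay below them in 6 (6.52%), against 30.7%. WT 2 was the highest WT library in 55 members (59.8%, against 35.4%). The median log2 difference of the members from the WT mean was 0.32 in IL-2-KO 1 and 0.28 in IL-2-KO 3, but 0.05 in replicate 2 and -0.01 in replicate 4. In WT it was 0.03, 0.12, -0.08 and -0.06. IL-2-KO replicates 1 and 3 come from 26.7 and 1.1 M sorted cells, and replicates 2 and 4 from 42.6 and 0.4 M. IL-2-KO 3 and WT 2 are the libraries with high myeloid and dendritic cell markers. In IL-2-KO 1 the myeloid markers summed to 9.55 and the dendritic cell markers to 40.3, the latter the highest of the other 6 libraries. The part of cell number and of other cell types in this order was not tested.

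This order went with transcript length. Among the 39 members with transcripts under 700 bases, IL-2-KO replicates 1 and 3 exceeded replicates 2 and 4 in 37 (94.9%), and 72.6% of all 391 tested genes of that length did the same. Among members of 1500 bases or more it was 11 of 22 (50%), against 25.8% of all such genes. The median log2 change between groups also went with length: 0.18 for members under 700 bases, 0.19 from 700 to under 1000, 0.17 from 1000 to under 1500 and 0.07 from 1500 up. For all tested genes of these lengths it was 0.13, 0.07, 0.03 and -0.03. In each of the 4 classes the members' median lay above that of all genes of like length, a difference that was not tested. Removing the trends with GC content and length from each library gave a member median of 0.09, with 12 members called higher and 2 lower. The 12 are 13% of the members, against 13.1% of all genes called higher in that setting. The part of transcript length, or of whatever differs between these libraries, in the members' difference was not tested further. Respiratory chain genes also have processed pseudogenes. The values have a form that fractional counting gives, but whether reads were shared between a gene and its copies is not known here.

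**Figure D4:**
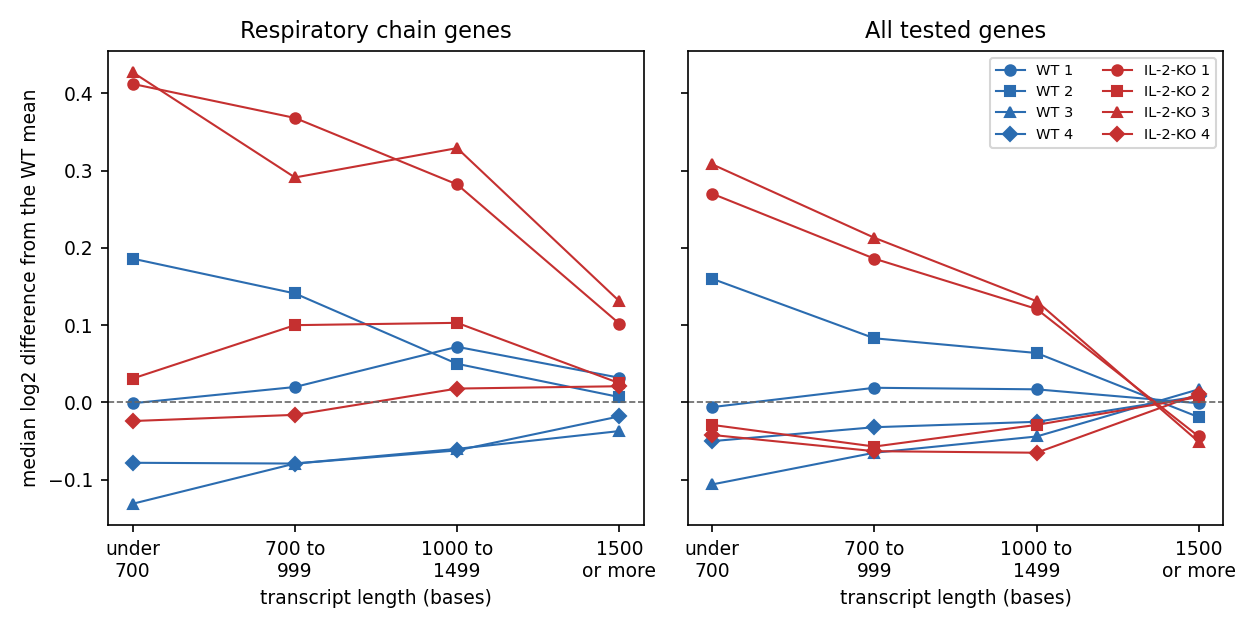
Median log2 difference from the WT mean in each of the 8 libraries, by transcript length class, for the members (left, 39, 16, 15 and 22 genes) and for all tested genes (right, 391, 601, 1274 and 9173 genes). IL-2-KO 1 and 3 lie at 0.41 and 0.43 for the shortest members and at 0.10 and 0.13 for the longest; over all genes they lie at 0.27 and 0.31 and fall to -0.04 and -0.05.

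The 4 calls depended on single libraries. Without WT replicate 3, or without WT replicate 4, 0 members were called in either direction, where 7.34% and 7.68% of all genes were called higher. Without IL-2-KO replicate 4, 13 members (14.1%) were higher, against 11.2% of all genes. Within the 4 libraries of over 20 M sorted cells, and within the 4 of under 2 M, 0 members passed. Over all genes, 322 were higher and 62 lower in the first class, and 355 and 86 in the second. The member median was 0.10 in the first class and 0.25 in the second, and an interaction of genotype with cell number class was past the adjusted threshold for 0 of 11530 genes by limma (193 at an unadjusted p under 0.05, 0 of them members). In the 25 other settings tried, Cox4i1 stayed past the threshold in 18, Sdhd in 17, Atp5b in 13 and Atp5pb in 12, and none of the 4 changed sign. Leaving out WT 2 and IL-2-KO 3 together left 6 members higher (6.52%, against 10.7% of all genes) and 1 lower, with a member median of 0.15. Over all genes, 1235 were higher and 846 lower in that setting.

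Other mitochondrial genes moved in both directions. The 44 listed assembly factors with other names, such as the SCO, COA and UQCC genes, held 0 calls and had a median log2 difference of 0.00. Of 22 regulators of mitochondrial gene expression and biogenesis, 18 were below 0, where 5938 of all 11530 tested genes were. By the test 1 of the regulators fell, where 8.03% of all tested genes did. It was Polg2, the accessory subunit of the mitochondrial DNA polymerase, from 43.2 ± 1.88 to 33.3 ± 3.74 (adjusted p = 0.0205 by limma). Nrf1 (88.3 ± 8.78 and 84.2 ± 4.70) and Tfam (94.2 ± 2.18 and 98.7 ± 4.94) did not pass. Of 18 genes of the tricarboxylic acid cycle and pyruvate dehydrogenase, Idh3a rose, from 101 ± 5.32 to 125 ± 4.82 (adjusted p = 0.00962 by limma). That is 5.56% of the list, against 11.1% of all tested genes. In 5 of the 18 (27.8%, against 12.9%) the groups did not overlap and were higher in IL-2-KO. Of the 25 other settings, Polg2 stayed past the threshold in 18, lost it with the replicate block (adjusted p = 0.065) and without WT replicate 1 (0.0529), 3 (0.0546) or 4 (0.0528) or IL-2-KO replicate 2 (0.0555), and Idh3a stayed in 23.

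Of 18 genes for import and the outer membrane, 3 rose (16.7%, against 11.1% of all tested genes) and 0 fell, with a median of 0.13. They were the ADP/ATP carriers Slc25a5 (1.26-fold, adjusted p = 0.0079 by limma) and Slc25a4 (1.25-fold, 0.0405), which exchange the product of complex V, and the pore Vdac1 (1.18-fold, 0.0447). Slc25a5 read 335, 283, 314 and 315 in WT and 402, 392, 386 and 393 in IL-2-KO, so its IL-2-KO replicates were nearly equal. Slc25a5 stayed past the threshold in 23 of the 25 other settings, but Slc25a4 and Vdac1 in 10 each. Those calls were lost with quantile normalization (adjusted p = 0.0623 and 0.0622), with columns rescaled to a common sum (0.0566 and 0.0626) and with the replicate block (0.0891 and 0.0942), among others. Among 19 genes that feed or bypass the chain, Gpd2 fell, from 40.9 ± 1.37 to 24.2 ± 3.77 (adjusted p = 0.00168). It encodes the glycerol-3-phosphate dehydrogenase that reduces ubiquinone from the outer face of the inner membrane. In the same list Etfb, the beta subunit of the electron transfer flavoprotein, rose from 45.6 ± 3.72 to 66.6 ± 11.4 (adjusted p = 0.0138), the superoxide dismutase Sod2 from 43.5 ± 2.08 to 55.1 ± 5.35 (adjusted p = 0.0229), and Ucp2, a carrier of the inner membrane, from 691 ± 13 to 814 ± 37.4 (adjusted p = 0.0414). The 3 rises are 15.8% of the list. Gpd2 stayed past the threshold in 23 of the 25 other settings, Etfb in 22, Sod2 in 18 and Ucp2 in 11. The Sod2 call was lost with GC content and length trends removed (adjusted p = 0.0633), with the replicate block (0.0768) and without WT replicate 1 (0.0681), 3 (0.0732) or 4 (0.0673). All 9 of these genes outside the members lost the call in either cell number class alone, and none changed sign in the 25 settings.

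All 16 listed cell cycle genes rose (100%, against 11.1% of all tested genes), with a median log2 difference of 1.73. Rrm2, a subunit of ribonucleotide reductase, read 29.8, 34.3, 26.6 and 28.1 in WT and 88.4, 104, 115 and 95.1 in IL-2-KO, and the proliferation marker Mki67 from 120 ± 17.4 to 461 ± 76.7. Mki67 was 348, 499, 515 and 481 in IL-2-KO replicates 1 to 4, and Pcna 254, 206, 258 and 218. The order of these libraries thus differed between cell cycle genes. Rrm2 and Mki67 stayed past the threshold in all 25 other settings, Pcna in 18, and the remaining listed genes in 24 or 25. The part of the cell cycle in the members' difference was not tested.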

How the data were processed

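The deposited table gives 1 linear signal value per gene and library, which the authors named TMM counts CPM: counts per 1e6 of a TMM-adjusted library size. Per the submitters' processing notes, featureCounts was among the tools, with R 3.4.3 and limma 3.34.9, and the builds named are mm10 and GRCm38. The aligner and strand setting are not given in the sources used here. Of the values under 20, 54.61% to 65.04% per library were whole reads (within 0.001 read) and 100% were whole hundredths of a read (within 0.05 of a hundredth), so no count test was run. Entrez identifiers were matched to RefSeq symbols (11651 matched, 72 not). Genes that reached 1 in 4 or more of the 8 libraries were compared between groups with limma 3.58.1 in R 4.3.3 (empirical Bayes, mean-variance trend) on log2(value + 0.5), with Benjamini-Hochberg adjustment over 11530 genes at 0.05. The steps were tested on simulated data.

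The members, lists and tests were chosen with earlier results of these data known. Named were all called members, in each complex (subunits and assembly factors apart) those with the 2 smallest adjusted p and the highest and lowest level per kb, the isoform sets, and up to 3 called genes per pathway list. Ndufv1, Ndufs1, Sdha, Ndufab1, Ndufb4, Cyc1, Uqcrc1, Uqcrc2, Cox7c, Atp5a1, Atp5k, Atp5l, Atp5md, Nrf1, Tfam and Ucp2 were added after their values were seen. A gene that the rule names is not reported here. The series' text calls the samples biological replicates; the labels do not show whether they are separate litters or sorts, so p-values measure the spread between these samples. Libraries of 1 group differed by more than sampling noise. Replicate numbers are shared between groups, but not every same-numbered pair deviated together. Promoters are from RefSeq (GRCm38.p6), transcript lengths from GENCODE M21. Tools for tables and figures were pandas 2.3.3, numpy 2.4.6 and matplotlib 3.10.9.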

Additional observations from a re-analysis of the deposited data

Results flagged for a closer look

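In 3 of 68 groups of 4 libraries, for the 34 named members, a single library lay far from the other 3 by Dixon's criterion. Chance flags about 1 in 20 such groups. Cox6a1, a complex IV subunit, was highest in WT replicate 2 at 116, with the other WT libraries at 85.5 to 89.5. Cox7a2l, the supercomplex factor, was also highest in WT replicate 2 at 296, with the others at 232 to 240. Cox7a1, the muscle form, was lowest in IL-2-KO replicate 4 at 0.503, with the others at 1.08 to 1.14.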

How the results depend on the processing

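The 4 members called higher and 0 called lower stayed 4 and 0 under pseudocounts of 0.1 and 2, a median shift, no filter and a filter at 5, and the member median kept its sign in all 25 alternatives (0.09 to 0.25, against an SD of 0.13 between library medians within groups). Members called higher moved to 19 with array weights (20.7%, against 19.4% of all genes) and 12 with GC content and length trends removed (13% against 13.1%). With the style of the sample name (spelled in 2 ways) as a term they were 2 (2.17% against 9.71%). In either cell number class alone they were 0, against 2.79% of all genes in the large sorts and 3.08% in the small ones. Leaving out 1 library gave 0 to 13 higher and 0 to 1 lower, while 7.34% to 11.2% of all genes were called higher and 439 to 938 genes lower. Called lower were 3 with array weights, 2 with GC and length trends removed, and 1 with quantile normalization or with WT 2 and IL-2-KO 3 both left out. Over all genes, 2119, 1276, 1223 and 846 were called lower in these settings, in that order. With a replicate block, 1 member (Sdhd) was called higher; over all genes the block left 911 higher and 486 lower, against 1285 and 926. Same-numbered libraries correlated at 0.084, -0.53, -0.402 and 0.394 in their deviations, so the numbers are not taken to pair them. Quantile normalization gave 1169 genes higher and 1223 lower, and array weights 2240 and 2119. The cause of these differences was not tested.

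Signs were followed gene by gene only for the members that the naming rule chose. Among these, the following log2 differences changed sign. The values reported for these genes lie near 0, except for Cox6b2 (0.27). Members outside this list changed sign too. Over all tested members, 78 were above 0 in the main fit and 72 with quantile normalization. Without the small sorts 67 were, and with GC and length trends removed 73. With quantile normalization they were Atp5g1 (-0.008) and Cox6b2 (-0.016). With array weights they were Ndufaf5 (0.092), Ndufb2 (-0.066), Atp5g1 (-0.044) and Cox6b2 (-0.069), and with log10 cell number Ndufaf5 (0.002) and Atp5g2 (0.008). With name style it was Ndufaf5 (0.010), without the small sorts Atp5g1 (-0.014) and Cox7a2l (-0.055), and without the large sorts Ndufaf5 (0.079), Ndufb2 (-0.029), Sdhc (0.007) and Atp5g2 (0.026). Without WT 2 and IL-2-KO 3 they were Ndufaf5 (0.051), Sdhc (0.010) and Atp5g2 (0.020), and with GC and length trends removed Sdhaf3 (0.006) and Cox7a2l (-0.023). Leaving out 1 library gave -0.122 to 0.020 for Sdhaf3, -0.010 to 0.105 for Cox7a2l, -0.040 to 0.056 for Ndufaf5, -0.066 to 0.012 for Sdhc, -0.066 to 0.061 for Atp5g2, -0.032 to 0.195 for Ndufb2 and -0.015 to 0.115 for Atp5g1.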
